A study of Mus musculus with 12 samples.

Results

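This account covers 39 genes of the actin cytoskeleton in cultures of mouse bone marrow kept with the myeloid growth factor GM-CSF. The genes were taken from a list of names, and each was read from a probe set that carries a single gene symbol in the platform annotation. Of the 39 genes, 37 were measured, out of 19938 genes in all. Actg1, cytoplasmic gamma actin, was dropped because its probe sets also carry the symbol of the beta actin gene Actb. Arpc3, a subunit of the actin-branching Arp2/3 complex, was dropped because no probe set with a single symbol carries its name.

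RNA was hybridised to Affymetrix GeneChip Mouse Gene 1.0 arrays, 12 in all, with 3 in each of 4 groups. Marrow of C57B/6 mice, from the leg bones, had been cultured for 6 days with GM-CSF at 20 ng/ml, and this holds for every group. The groups were GM-DC, labelled dendritic, after 4 hours with lipopolysaccharide (LPS, a bacterial product sensed by Toll-like receptors) at 10 ng/ml, GM-DC left unstimulated, GM-MF, labelled macrophage, after the same LPS, and GM-MF left unstimulated. No genotype or animal age is given in the sources used here, nor how GM-DC and GM-MF were told apart, and the labels do not say whether arrays of a group came from separate mice or cultures. The p-values therefore reflect only how far these arrays spread, possibly for technical reasons.

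Actin monomers assemble into filaments, and cells shape themselves by deciding where filaments are nucleated, branched, bundled, cut and tied to the membrane. Dendritic cells are known for veils and dendrites carried by bundled actin and for fast movement once matured, and macrophages for adhesion structures called podosomes and for phagocytic cups. Profilin, thymosin and cofilin handle the monomer pool, the Arp2/3 complex and its activators build branched networks, fascin and plastins bundle filaments, gelsolin-family proteins cut and cap them, class I myosins and ERM proteins (ezrin, radixin, moesin) tie them to the membrane, and vinculin, talin and zyxin tie them to adhesions.

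Levels are the deposited log2 expression values. Differences are in log2 units with the standard error (SE) of a limma fit over all 12 arrays, and a gene passed at an adjusted p under 0.05. A level belongs to its own probe set, so levels of different genes were not set against each other. In bulk RNA, fewer cells of a type and less RNA per cell cannot be told apart.

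The labels were read against marker genes. Of 9 dendritic cell markers, 8 were higher in GM-DC than in GM-MF both with and without LPS, Kmo being the exception, and all 9 macrophage markers were lower in both. The Flt3 level averaged 8.59 in unstimulated GM-DC, against 4.26 in unstimulated GM-MF, while Msr1 averaged 5.49 in GM-DC and 11.03 in GM-MF. Of the 9 neutrophil markers, 5 were lower in GM-DC with LPS and 1, Mpo, higher, with summed levels of 10.66 to 10.83 in GM-DC, against 11.65 to 11.79 in GM-MF. Without LPS 2 were lower, Mpo was again higher (0.73) and 6 did not pass, with summed levels of 10.79 to 10.93 in GM-DC, against 11.26 to 11.53 in GM-MF. Summed levels of the 10 stromal markers without LPS ran from 7.61 to 7.70 in GM-DC, against 7.90 to 8.13 in GM-MF, with 5 of the 10 under the array medians in either. Of the 5 platelet markers measured, Pf4 (a difference of -5.18) and Ppbp (-0.96) were lower in unstimulated GM-DC and 3 did not pass (Itga2b 0.24, Gp9 0.16, Tubb1 0.01). Of the 6 mast cell and basophil markers, Kit was higher without LPS (3.06) and the other 5 did not pass (-0.33 to 0.15). Of the 4 erythroid markers measured, 0 passed in any of the 5 comparisons of the limma fit, and 0 did so at an unadjusted p under 0.05. Of 6 T and NK cell markers 2 were higher and 1 lower without LPS, among them Cd8a (3.09), and of 6 B cell markers Cd79b alone passed, with LPS. Of 10 immediate early genes, listed as possible marks of handling, 2 were higher and 6 lower in unstimulated GM-DC. With LPS, 3 of the 10 changed in GM-DC and 4 in GM-MF. Handling cannot be told apart from cell type or LPS in these genes. The part of these markers in the results was not tested.

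Promoter sequence is shown for genes on which the results turn and whose window holds a motif. RefSeq windows of 300 bases (250 before the start and 50 after it, build GRCm38.p6) were found for 36 of the 39 genes. The CArG box, a CC, a run of A and T bases and a GG, is the site bound by serum response factor, which many actin genes answer to. It lay in windows of 4 of the 36 genes (Actg1, Cnn2, Myo1e and Vcl), 11.1%, and of 1.81% of all 27018 genes, searched on both strands. The following stretches, all on the plus strand and all upstream of the start, carry it in capitals.
Cnn2, chr10:79988519-79988578: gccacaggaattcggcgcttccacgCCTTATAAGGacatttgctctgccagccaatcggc
Vcl, chr14:20929148-20929205: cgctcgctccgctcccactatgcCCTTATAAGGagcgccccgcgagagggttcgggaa
Myo1e, chr9:70207293-70207349: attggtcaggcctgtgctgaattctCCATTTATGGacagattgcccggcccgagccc
The Cnn2 and Vcl boxes have the same 10 bases.

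The Fscn1 promoter holds TGACGTCA, the letters of a cAMP response element, which reads the same on both strands. It is printed because Fscn1 is described at length among the bundling genes.
Fscn1, chr5:142960205-142960354, plus strand: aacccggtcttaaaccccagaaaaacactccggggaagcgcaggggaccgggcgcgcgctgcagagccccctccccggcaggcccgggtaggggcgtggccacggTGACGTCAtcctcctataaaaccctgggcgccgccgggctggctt
These letters lay in windows of 2 of the 36 genes (Fscn1 and Cdc42), 5.56%, against 2.03% of all genes. The motif was picked after the sequences had been seen, so these shares cannot show an excess among the members. A loose form of the NF-kB site, 3 G followed by any 5 bases and by CC, searched on both strands and overlapping matches counted once per gene, was in 77.8% of the 36 genes and in 53.5% of all genes. A match describes these letters and is not a measured binding site.

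Without LPS, the actin genes of GM-DC split in both directions: 11 of the 37 were higher than in GM-MF, 15 were lower and 11 did not pass, so 70.3% were called. Calls were common across the array, with 34.2% of all 19938 genes called (18% higher, 16.2% lower) and 55% of the 11087 genes whose mean lay above the table median, as did those of all 37 members. The median size of the difference was 0.60 over the members and 0.20 over all genes. Here and below, all-gene values of size, 2-fold change and overlap include genes under the table median, where no member mean lay. Fascin, scinderin, 2 calponins, coronin 1A and a class I myosin, Myo1g, led the higher set, and Myo1f, Evl, Capg and Pls3 the lower one. At 2-fold or more, 8 were higher and 5 lower, against 5.69% and 7.02% of all genes.

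With LPS the split was alike in size, 13 higher, 13 lower and 11 not passed, where 36.3% of all genes were called (20.9% higher, 15.4% lower) and 57.7% of those above the table median. Arrays of GM-DC and GM-MF did not overlap for 33 of the 37 genes without LPS and 35 with it, against 44.4% and 44.9% of all genes. At 2-fold or more with LPS, 6 were higher and 4 lower, against 6.4% and 6.5% of all genes.

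**Figure D1:**
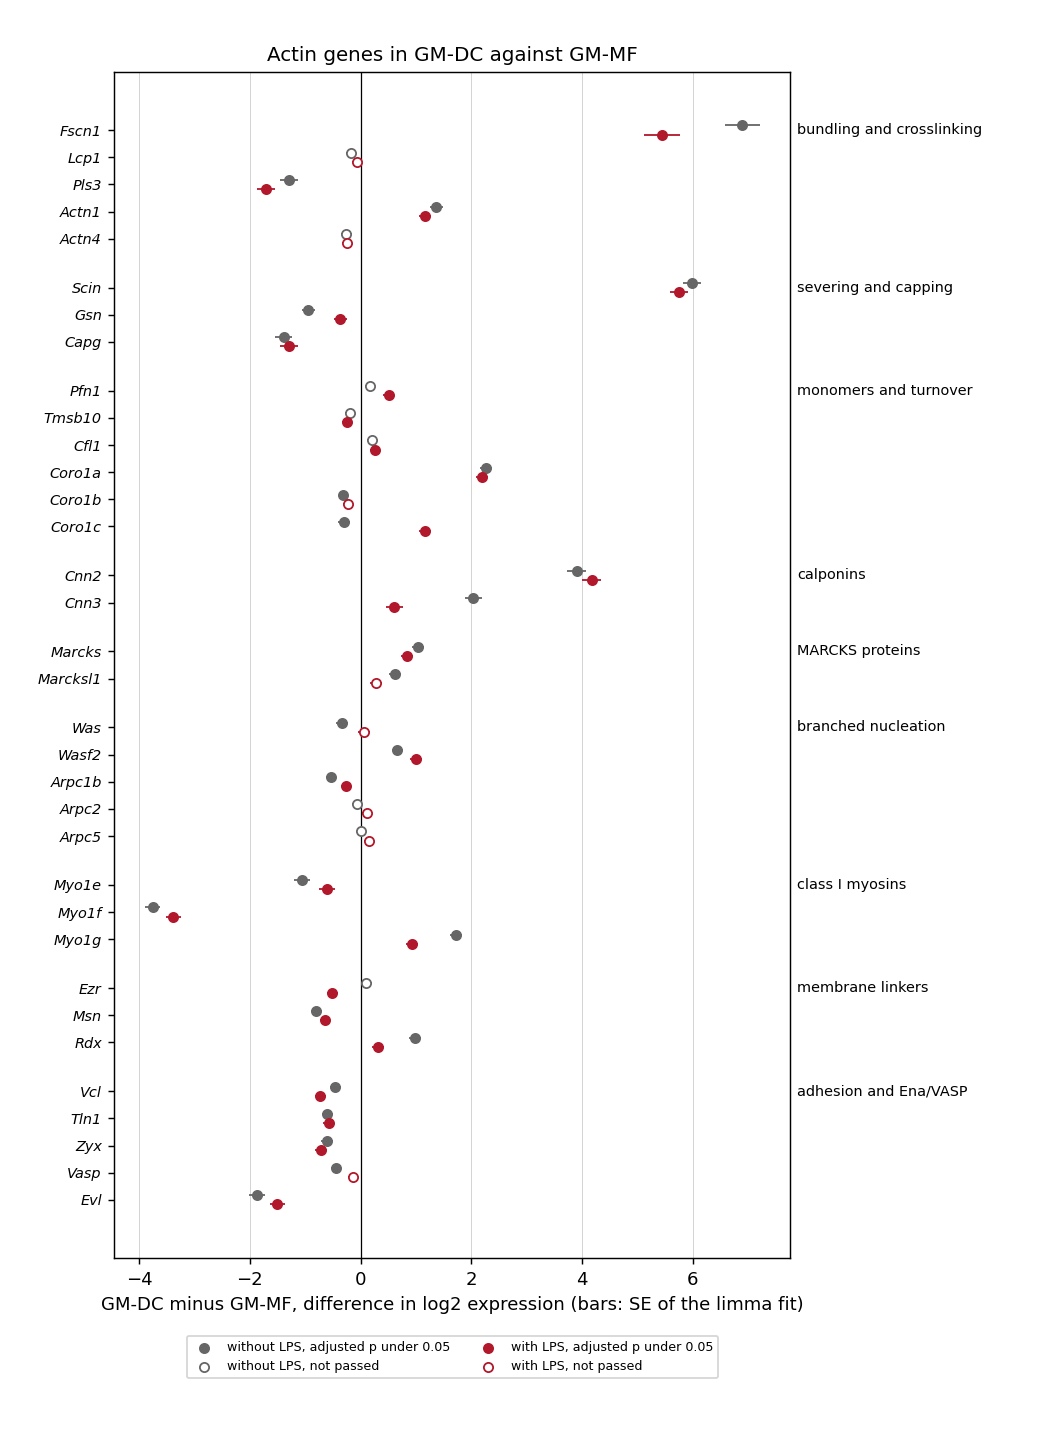
GM-DC minus GM-MF difference in log2 expression for 34 of the 37 measured actin genes, grouped by role, without LPS (grey) and with LPS (red), from 3 arrays per group. Points are fitted differences, bars their SE, and filled points passed at an adjusted p under 0.05; Fscn1, Scin and Cnn2 lie farthest to the right and Myo1f farthest to the left.

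Among the bundling and crosslinking genes, Fscn1 encodes fascin, which packs filaments into the tight bundles of dendrites and filopodia. With LPS, its log2 level was 12.19, 12.24 and 12.10 on the GM-DC arrays, against 6.66, 7.39 and 6.14 on the GM-MF arrays. Without LPS, the values were 11.73, 11.64 and 12.03 in GM-DC, against 4.37, 5.76 and 4.59 in GM-MF. All 6 GM-DC arrays lay above all 6 GM-MF arrays, and the difference was 5.44 ± 0.32 with LPS and 6.89 ± 0.32 without it (adjusted p = 2.13e-09 and 1.53e-10). 1 of the 3 unstimulated GM-MF values lay under its array median, so the fold of 119 without LPS is a ratio of signals whose lower one is not shown to lie above background.

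Actn1, which encodes alpha-actinin 1, a crosslinker of stress fibres and adhesions, was higher in GM-DC as well. Its levels with LPS were 10.73, 10.79 and 10.69 in GM-DC, against 9.71, 9.48 and 9.54 in GM-MF. Unstimulated, the levels were 9.99, 9.86 and 10.28 in GM-DC, against 8.68, 8.61 and 8.72 in GM-MF. The groups did not overlap in either condition, with a difference of 1.16 ± 0.11 with LPS and 1.37 ± 0.11 without it.

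Pls3, encoding plastin 3 (T-plastin), went the other way. With LPS its levels were 5.58, 5.50 and 5.45 in GM-DC, against 7.03, 7.13 and 7.48 in GM-MF. In the absence of LPS, levels were 5.72, 5.67 and 6.06 in GM-DC, against 7.06, 6.80 and 7.46 in GM-MF. Every GM-DC array was below every GM-MF array, and the difference was -1.71 ± 0.16 with LPS and -1.29 ± 0.16 without it. Lcp1, encoding the leukocyte plastin, and Actn4, encoding alpha-actinin 4, passed in none of the 5 comparisons: the GM-DC minus GM-MF differences without LPS were -0.18 ± 0.09 and -0.26 ± 0.10. Actn4 lay near the threshold (adjusted p = 0.0633 with LPS and 0.0514 without it). It passed under 7 of 22 alternatives with LPS and under 9 of 22 without it, cyclic loess among them (-0.37 and -0.29). It also passed when GM-DC replicate 2 with LPS was left out (-0.30 and -0.26, adjusted p = 0.04 and 0.048). Without LPS it did so too when replicate 3 of those was left out (adjusted p = 0.045). After a further quantile normalization, Lcp1 with LPS was at 0.23 (adjusted p = 0.0365), against -0.07 as deposited.

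The 3 gelsolin-family genes on the member list differed in direction. Scin encodes scinderin (adseverin), a calcium-dependent severing protein. It stood at 9.09, 9.15 and 9.51 in GM-DC with LPS, against 3.73, 3.71 and 3.09 in GM-MF with LPS. Unstimulated, it stood at 9.28, 9.28 and 9.53 in GM-DC, against 3.28, 3.41 and 3.45 in GM-MF. The difference was 5.74 ± 0.16 with LPS and 5.98 ± 0.16 without it. All 6 GM-MF values lay under their array medians, so the folds of 53.6 with LPS and 63.2 without it are ratios of signals, the lower of which is not shown to lie above background.

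Gsn, encoding gelsolin, which severs filaments and caps their ends, was lower in GM-DC. Its levels with LPS were 8.33, 8.47 and 7.96 in GM-DC, against 8.61, 8.64 and 8.60 in GM-MF. Unstimulated arrays gave values of 7.80, 7.76 and 7.59 in GM-DC, against 8.65, 8.70 and 8.64 in GM-MF. The difference was -0.36 ± 0.12 with LPS (adjusted p = 0.0269) and -0.94 ± 0.12 without it (1.3e-05), with no overlap in either. With LPS it came to -0.22 (adjusted p = 0.135) without GM-DC replicate 3 with LPS, and the Gsn call was also lost when any 1 of the 3 GM-MF arrays with LPS was left out (adjusted p = 0.057 to 0.0704).

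Capg, encoding the capping protein CapG, which caps filament ends without severing, was lower too. Capg was at 10.06, 10.18 and 9.57 in GM-DC, against 11.24, 11.27 and 11.16 in GM-MF, with LPS. Without LPS it was at 10.12, 10.11 and 9.59 in GM-DC, against 11.35, 11.34 and 11.29 in GM-MF. The difference was -1.29 ± 0.16 with LPS and -1.39 ± 0.16 without it, and array 3 was the lowest of GM-DC in both conditions.

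The calponins on the member list, which bind along filaments and steady them, were both higher in GM-DC. The 1 calponin gene of the wider list below did not pass, at -0.11 without LPS and 0.02 with it. Cnn2, whose promoter box is printed above, had levels with LPS of 10.08, 10.13 and 10.35 in GM-DC, against 6.18, 6.30 and 5.58 in GM-MF. Without LPS they were 10.32, 10.09 and 10.44 in GM-DC, against 6.53, 6.48 and 6.14 in GM-MF. The Cnn2 difference was 4.17 ± 0.17 with LPS and 3.90 ± 0.17 without it, or 18-fold and 14.9-fold, with no overlap.

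Cnn3 levels with LPS were 6.62, 6.61 and 6.12 in GM-DC, against 5.71, 6.11 and 5.69 in GM-MF. Unstimulated, the levels were 6.43, 6.25 and 6.27 in GM-DC, against 4.34, 4.07 and 4.44 in GM-MF. The lowest GM-DC array with LPS stood just above the highest GM-MF array with LPS. The difference was 0.61 ± 0.15 with LPS (adjusted p = 0.00508) and 2.03 ± 0.15 without it (4.3e-08), and the 3 unstimulated GM-MF values lay under their array medians.

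The coronins, which bind filaments and guide Arp2/3 and cofilin to them, differed from one another. Coro1a, the coronin of leukocytes, had levels with LPS of 10.43, 10.55 and 10.57 in GM-DC, against 8.25, 8.36 and 8.37 in GM-MF. In the absence of LPS, levels were 10.61, 10.59 and 10.76 in GM-DC, against 8.23, 8.59 and 8.35 in GM-MF. Groups did not overlap, and the difference was 2.19 ± 0.11 with LPS and 2.27 ± 0.11 without it, 4.57-fold and 4.81-fold.

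Coro1c levels with LPS were 9.24, 9.06 and 8.93 in GM-DC, against 7.93, 8.01 and 7.79 in GM-MF. Unstimulated arrays gave values of 8.88, 8.89 and 9.01 in GM-DC, against 9.23, 9.16 and 9.29 in GM-MF. Coro1c was thus above GM-MF with LPS, by 1.17 ± 0.11 (adjusted p = 2.88e-07), and slightly below it without LPS, at -0.30 ± 0.11 (0.0385). The second of these calls was lost when any of 4 unstimulated arrays was left out, GM-DC replicate 1 or 2 or GM-MF replicate 1 or 3 (Coro1c difference -0.27 to -0.30, adjusted p = 0.0825 to 0.126), and after a further quantile normalization (-0.22). Coro1b, encoding coronin 1B of the leading edge, was lower in GM-DC without LPS, at -0.31 ± 0.09 (-0.11 and not passed after quantile normalization), and was -0.23 ± 0.09 with LPS, which did not pass (adjusted p = 0.053, and 0.0433 without unstimulated GM-MF replicate 2).

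Genes of the monomer pool showed small differences. Pfn1, encoding profilin 1, which loads monomers onto growing ends, was higher in GM-DC with LPS, where its levels were 11.79, 11.76 and 11.70, against 11.28, 11.27 and 11.19 in GM-MF, a difference of 0.51 ± 0.09 (adjusted p = 0.000419). Without LPS its difference was 0.17 ± 0.09, which did not pass. Cfl1, encoding the severing protein cofilin 1, was higher by 0.26 ± 0.09 with LPS, and Tmsb10, encoding the monomer-binding thymosin beta 10, was lower, at -0.25 ± 0.09. Both of these calls were lost when any 1 of the 6 LPS arrays was left out (adjusted p = 0.0627 to 0.105 for Cfl1 and 0.0555 to 0.0957 for Tmsb10), and also when unstimulated GM-DC replicate 2 was left out (0.0517 for Cfl1 and 0.0505 for Tmsb10) and, for Tmsb10, unstimulated GM-DC replicate 1 or GM-MF replicate 3 (0.0504). The Cfl1 call was lost after cyclic loess (0.23) or median centring (0.21) too.

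The MARCKS proteins hold filaments and phosphoinositides at the membrane until they are phosphorylated. Marcks levels with LPS were 11.59, 11.61 and 11.58 in GM-DC, against 10.77, 10.81 and 10.67 in GM-MF. Without LPS they were 11.67, 11.60 and 11.55 in GM-DC, against 10.53, 10.38 and 10.80 in GM-MF. GM-DC was higher with no overlap, by 0.84 ± 0.11 with LPS and 1.04 ± 0.11 without it. Marcksl1 was higher in GM-DC without LPS, by 0.62 ± 0.10 (adjusted p = 0.000212), and its difference with LPS was 0.28 ± 0.10 (adjusted p = 0.0536), which did not pass. The Marcksl1 difference with LPS passed without unstimulated GM-DC replicate 2 (adjusted p = 0.0499) or 3 (0.034), and was 0.55 after a further quantile normalization.

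Of the 5 genes of branched nucleation, Wasf2, encoding the WAVE2 activator of Arp2/3 at the leading edge, was higher in GM-DC. Its levels with LPS were 10.31, 10.32 and 10.32 in GM-DC, against 9.41, 9.29 and 9.24 in GM-MF. Unstimulated, the levels were 10.14, 10.20 and 10.40 in GM-DC, against 9.71, 9.47 and 9.57 in GM-MF. The difference was 1.00 ± 0.10 with LPS and 0.66 ± 0.10 without it. Was, encoding the Wiskott-Aldrich syndrome protein, an Arp2/3 activator of podosomes, was lower without LPS, at -0.34 ± 0.11 (adjusted p = 0.0221), and stood at 0.06 ± 0.11 with LPS. That Was call was lost without GM-DC replicate 2 or 3 or GM-MF replicate 2, all unstimulated (difference -0.30 to -0.33, adjusted p = 0.0581 to 0.0817).

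Arpc1b, an Arp2/3 subunit of blood cells, was lower in GM-DC, at -0.27 ± 0.08 with LPS and -0.54 ± 0.08 without it. The Arpc1b call with LPS was lost without GM-DC replicate 1 or 3 or GM-MF replicate 1, all with LPS (adjusted p = 0.0538 to 0.07). The subunit genes Arpc2 and Arpc5 passed in none of the 5 comparisons, with differences of 0.11 ± 0.09 and 0.15 ± 0.09 with LPS. After a further quantile normalization both passed with LPS (Arpc2 0.38, Arpc5 0.41), and the Arpc1b difference with LPS came to 0.00. Arpc1b and Tmsb10 have 2 probe sets each, and in each gene both gave GM-DC minus GM-MF differences below 0, without and with LPS.

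Class I myosins are single-headed motors that join filaments to membranes, and the 3 on the member list did not share a direction. Further class I myosin genes were measured as part of the wider list below and are not described singly. Myo1f levels with LPS were 5.23, 5.59 and 5.03 in GM-DC, against 8.75, 8.56 and 8.67 in GM-MF. In the absence of LPS, levels were 6.67, 6.66 and 6.37 in GM-DC, against 10.30, 10.32 and 10.35 in GM-MF. The groups were far apart, with a difference of -3.38 ± 0.13 with LPS and -3.76 ± 0.13 without it (adjusted p = 3.22e-11 and 1.03e-11), the largest downward differences among the members.

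Myo1g, a myosin of blood cells, ran opposite. Its levels with LPS were 10.68, 10.62 and 10.88 in GM-DC, against 9.83, 9.82 and 9.75 in GM-MF. Unstimulated arrays gave values of 10.80, 10.77 and 11.04 in GM-DC, against 9.08, 9.29 and 9.08 in GM-MF. GM-DC was higher by 0.93 ± 0.11 with LPS and by 1.72 ± 0.11 without it, with no overlap. Myo1e, found in podosomes and phagocytic cups and with a promoter box printed above, was lower, at -0.61 ± 0.15 with LPS and -1.06 ± 0.15 without it.

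**Figure D2:**
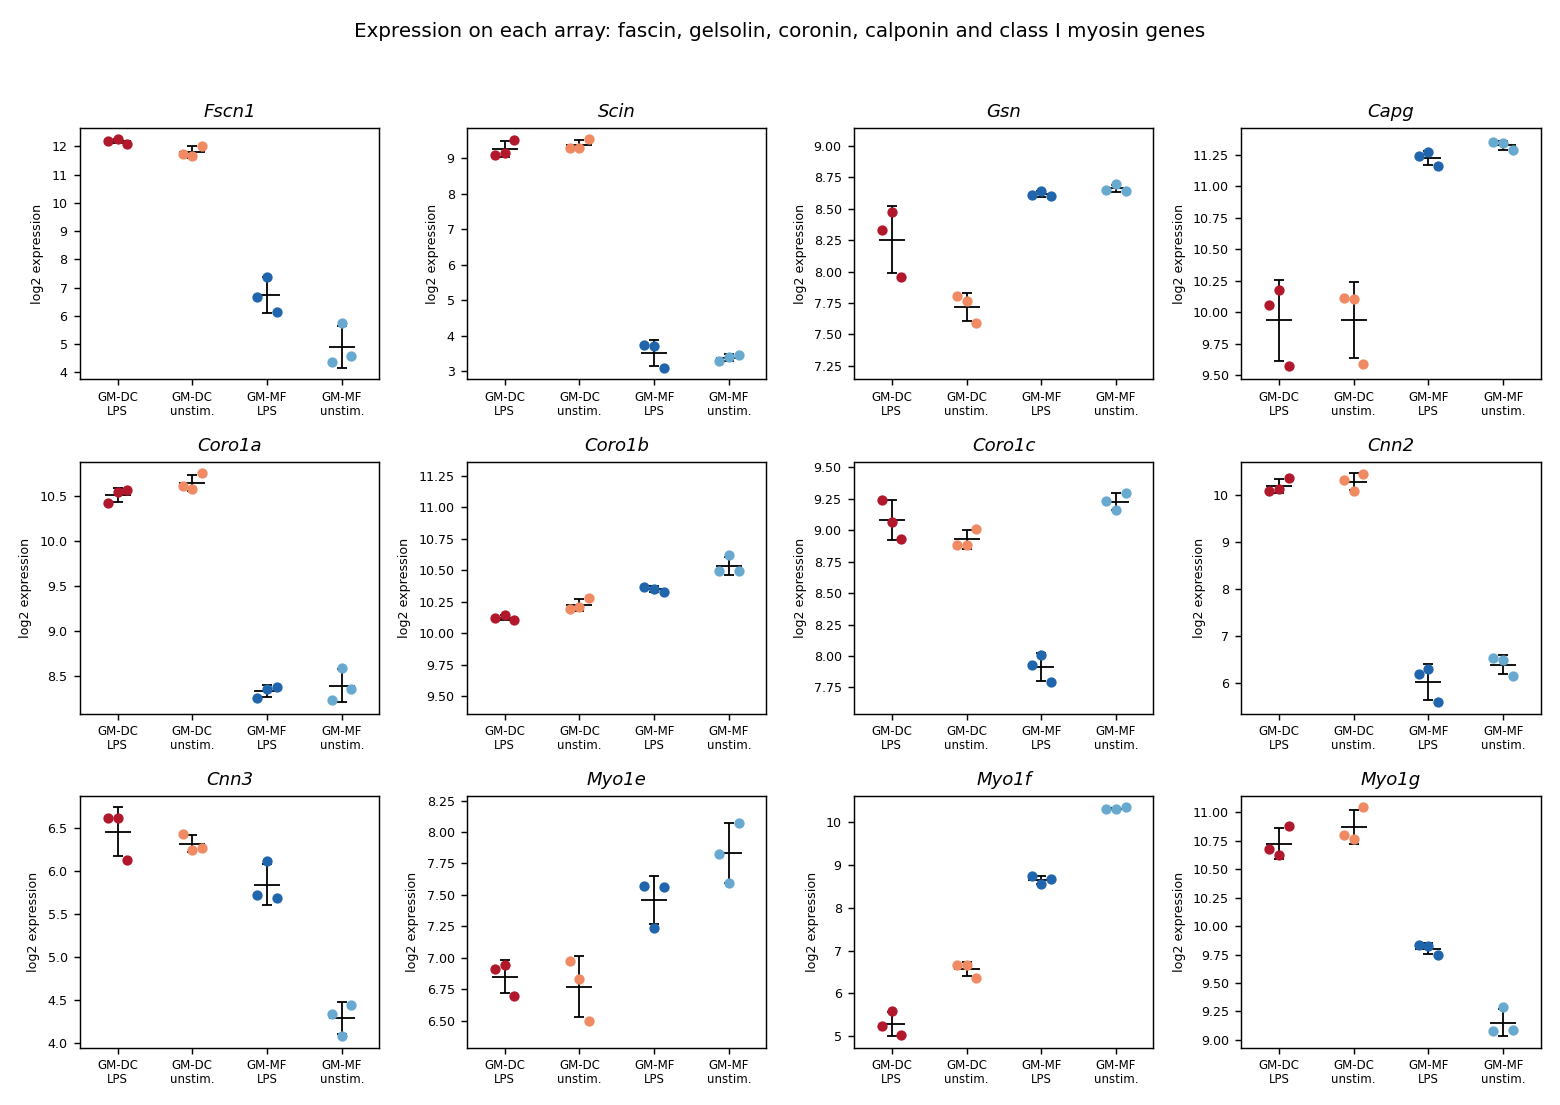
Log2 expression of 12 genes of the fascin, gelsolin, coronin, calponin and class I myosin families on every array, with 1 panel per gene and a separate range on each vertical axis. Points are arrays, the short line is the mean and the bar the SD (n = 3 per group); Myo1f lies lower and Myo1g higher in GM-DC, and Coro1c and Cnn3 shift with LPS on the GM-MF arrays.

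The ERM genes, whose proteins link filaments to membrane receptors, also split. Msn, encoding moesin, the main ERM protein of many leukocytes, had levels with LPS of 10.83, 10.99 and 10.76 in GM-DC, against 11.53, 11.44 and 11.53 in GM-MF. Without LPS they were 10.53, 10.48 and 10.51 in GM-DC, against 11.32, 11.38 and 11.21 in GM-MF. GM-DC was lower in both, at -0.64 ± 0.09 with LPS and -0.80 ± 0.09 without it.

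Rdx, encoding radixin, had levels without LPS of 9.69, 9.66 and 9.49 in GM-DC, against 8.75, 8.48 and 8.66 in GM-MF, a difference of 0.98 ± 0.11. With LPS its difference was 0.31 ± 0.11 (adjusted p = 0.0329), a call lost without GM-DC replicate 1 or 2 or GM-MF replicate 2 or 3, all with LPS (Rdx difference 0.25 to 0.31, adjusted p = 0.0672 to 0.129), and after cyclic loess (0.21) or median centring (0.26). Ezr, encoding ezrin, did not pass without LPS (0.11 ± 0.10). With LPS Ezr was at 8.04, 7.98 and 7.94 in GM-DC, against 8.57, 8.49 and 8.44 in GM-MF. All 3 GM-DC arrays were below all 3 GM-MF arrays there, and the difference was -0.51 ± 0.10 (adjusted p = 0.000629).

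All 5 adhesion and Ena/VASP genes were lower in unstimulated GM-DC. With LPS 4 of 5 were lower, Vasp being the one that did not pass. Of all genes, 16.2% were lower without LPS and 15.4% with it. When the 11087 genes with a mean above the table median were fitted alone, 3083 were lower without LPS and 2757 with it. Vcl encodes vinculin, which ties talin to filaments, and its box is printed above. Its levels with LPS were 8.13, 8.20 and 8.04 in GM-DC, against 8.99, 8.79 and 8.78 in GM-MF. Unstimulated, the levels were 7.74, 7.81 and 7.88 in GM-DC, against 8.37, 8.20 and 8.23 in GM-MF. The groups did not overlap, and the difference was -0.73 ± 0.10 with LPS and -0.46 ± 0.10 without it.

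Tln1, encoding the integrin activator talin 1, was lower, at -0.57 ± 0.10 with LPS and -0.60 ± 0.10 without it. Zyx, encoding zyxin, a protein of adhesions under tension, was lower, at -0.72 ± 0.11 and -0.60 ± 0.11. Vasp, which speeds filament growth at the leading edge, was lower, at -0.45 ± 0.09, without LPS and stood at -0.14 ± 0.09 with it (adjusted p = 0.292, and -0.30 with 0.0161 after cyclic loess).

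Evl, of the same Ena/VASP family, showed the largest differences of the 5. With LPS it had levels of 6.43, 6.43 and 6.15 in GM-DC, against 7.85, 7.89 and 7.79 in GM-MF. In the absence of LPS, levels were 6.69, 6.97 and 6.46 in GM-DC, against 8.36, 8.74 and 8.62 in GM-MF. Evl was lower in GM-DC without overlap, at -1.50 ± 0.14 with LPS and -1.87 ± 0.14 without it. Acta2, a smooth muscle actin on the stromal marker list and on the wider list below, was lower in GM-DC as well. Its difference was -0.75 with LPS and -1.11 without it. Of the 10 stromal markers, 0 were higher, 2 lower and 8 did not pass, both with and without LPS. Pdgfrb averaged 3.92 in GM-DC and 4.69 in GM-MF with LPS, and Vcam1 averaged 5.34 and 5.84 without it. The collagen gene Col1a1 was at 4.98 in unstimulated GM-DC and 5.04 in unstimulated GM-MF. The part of the stromal markers in the adhesion genes' differences was not tested. Of the 3 measured genes with a CArG box, Cnn2 was higher in GM-DC, and Vcl and Myo1e were lower.

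**Figure D3:**
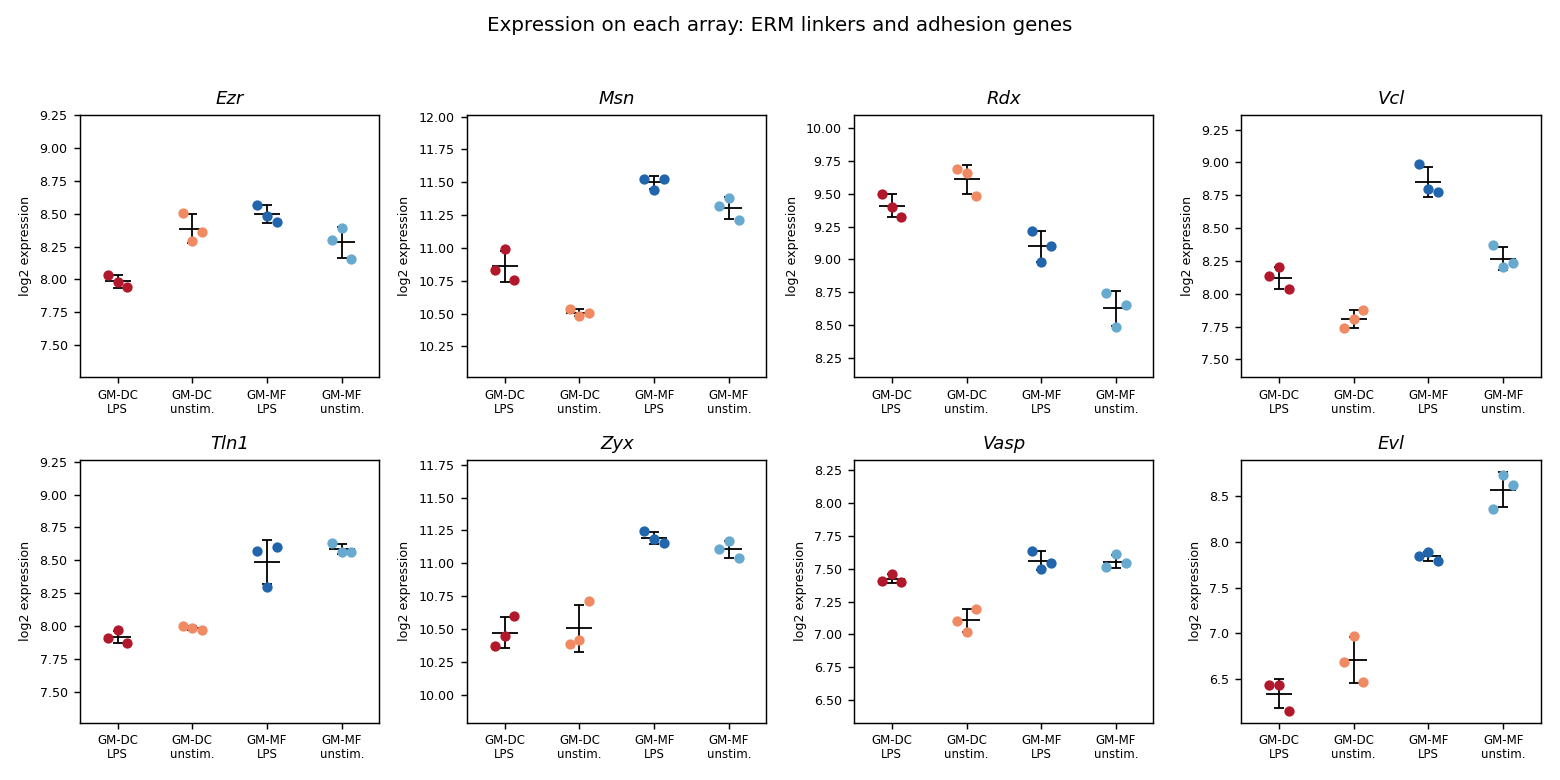
Log2 expression of the 3 ERM genes and the 5 adhesion and Ena/VASP genes on every array, with 1 panel per gene and a separate range on each vertical axis. Points are arrays, the short line is the mean and the bar the SD (n = 3 per group); Vcl, Tln1, Zyx and Evl lie lower in GM-DC than in GM-MF with and without LPS, and Ezr falls below GM-MF with LPS.

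After LPS, fewer of the 37 genes changed within either cell type, with Actn1, Marcksl1 and Myo1f changed in both GM-DC and GM-MF. In GM-DC, 5 of the 37 genes rose, 2 fell and 30 did not pass, so 18.9% were called, where 9.72% of all genes were called (5.23% higher, 4.49% lower) and 16.6% of those above the table median. In GM-MF, 7 rose, 6 fell and 24 did not pass, so 35.1% were called, where 17.4% of all genes were called (6.54% higher, 10.8% lower) and 28.8% of those above the table median. The median size of the change was 0.11 over the members and 0.12 over all genes in GM-DC, and 0.19 and 0.15 in GM-MF. LPS and unstimulated arrays did not overlap for 19 genes in GM-DC and 22 in GM-MF, against 24.3% and 31.5% of all genes. At 2-fold or more, 0 rose and 1 fell in GM-DC (all genes 1.65% and 0.431%, together 2.08%), and 2 rose and 2 fell in GM-MF (1.8% and 1.37%, together 3.17%).

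Actn1 rose in both. Set against its unstimulated values given above, its LPS arrays lay higher with no overlap, by 0.70 ± 0.11 in GM-DC (adjusted p = 0.000864) and 0.91 ± 0.11 in GM-MF (4.67e-05). Myo1f fell in both, by 1.29 ± 0.13 in GM-DC (1.33e-05) and by 1.67 ± 0.13 in GM-MF (6.71e-07), again with no overlap. Marcksl1 rose in both. Its levels in GM-DC were 10.89, 10.74 and 10.70 with LPS, against 10.45, 10.55 and 10.20 unstimulated, and in GM-MF 10.46, 10.52 and 10.53 with LPS, against 9.72, 9.79 and 9.83 unstimulated. The rise was 0.38 ± 0.10 in GM-DC (adjusted p = 0.0336) and 0.72 ± 0.10 in GM-MF (0.000182).

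In GM-DC with LPS, the other changes were of Gsn, Msn, Vasp and Ezr. Gsn rose by 0.53 ± 0.12 (adjusted p = 0.00973), Msn by 0.35 ± 0.09 (0.0272) and Vasp by 0.32 ± 0.09 (0.0397), and Ezr fell by 0.40 ± 0.10 (0.0166). Vasp levels were 7.41, 7.46 and 7.40 with LPS, against 7.10, 7.02 and 7.20 unstimulated. The arrays of all 4 genes did not overlap between LPS and unstimulated GM-DC. Markers moved on the same arrays. Of the 9 macrophage markers, Adgre1 (1.24), Mertk (1.00) and Cd14 (0.76) rose with LPS in GM-DC, Csf1r fell (-1.62) and 5 did not pass, and their summed level ran from 9.52 to 9.86 with LPS, against 9.57 to 9.73 unstimulated. Kit fell (-1.20) and the other 5 mast cell and basophil markers did not pass. Of the 9 dendritic cell, 9 neutrophil and 10 stromal markers, 1 each rose and the rest did not pass. Vcam1 of the stromal list averaged 6.86 with LPS and 5.34 unstimulated. Of the 10 immediate early genes, Egr1 (2.42) and Hspa1a (1.19) rose, Atf3 fell (-1.01) and 7 did not pass. The part of these markers in the 4 changes was not tested.

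Most of these small GM-DC calls depended on single arrays. The count of 5 risen genes came to 2, 3 and 3 without unstimulated GM-DC replicate 1, 2 and 3, and to 2 and 1 without LPS replicate 1 and 2 of GM-DC. The Gsn rise was 0.43 (adjusted p = 0.0565) without LPS replicate 2, and the Ezr fall did not pass without unstimulated replicate 1 (-0.34, adjusted p = 0.0949) or LPS replicate 2 (-0.40, adjusted p = 0.0541). The Marcksl1 rise did not pass without unstimulated replicate 1 or 3 or LPS replicate 1 or 2 (0.28 to 0.40, adjusted p = 0.0745 to 0.144). The Msn rise did not pass when any 1 of the 3 unstimulated arrays or LPS replicate 1 or 2 was left out (0.29 to 0.37, adjusted p = 0.0657 to 0.13), and neither did the Vasp rise when any 1 GM-DC array other than unstimulated replicate 3, or either GM-MF replicate 3, was left out (0.27 to 0.33, adjusted p = 0.0527 to 0.168). With the replicate number as a block within GM-DC, Vasp did not pass (adjusted p = 0.0618) and Evl did, at -0.37 (adjusted p = 0.0497, against 0.126 without the block). Evl also passed without unstimulated GM-DC replicate 3 (-0.49, adjusted p = 0.0427).

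In GM-MF with LPS, the genes that rose were Fscn1, Cnn3, Actn1, Marcksl1, Myo1g, Vcl and Rdx. Fscn1 rose by 1.82 ± 0.32 (adjusted p = 0.00078), 3.54-fold, and its 3 LPS arrays lay above its 3 unstimulated arrays. Cnn3 rose by 1.55 ± 0.15 (5.34e-06), Myo1g by 0.65 ± 0.11 (0.000634), Vcl by 0.58 ± 0.10 (0.000625) and Rdx by 0.47 ± 0.11 (0.00568). None of these genes passed in GM-DC other than Actn1 and Marcksl1. Vcl came close there (0.31 ± 0.10, adjusted p = 0.0629) and passed under 6 of the alternatives.

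Dendritic cell markers moved beside Fscn1 and Cnn3 on the GM-MF arrays. Of the 9, 4 rose with LPS in GM-MF, Ccr7 by 2.47, Cd83 by 1.05, Ly75 by 0.72 and Zbtb46 by 0.40, and 5 did not pass, among them Flt3 (-0.19). Their summed level ran from 10.79 to 11.43 in GM-MF with LPS, against 10.17 to 10.49 in unstimulated GM-MF. The GM-MF array with the highest Fscn1 value in each condition was replicate 2. It also had the highest values of Ccr7 (10.06 with LPS and 7.62 unstimulated), Cd83 (7.82 and 7.09) and Kmo (4.43 and 4.19). Its values of Flt3 (3.88 and 3.99) and H2-Eb2 (4.305 and 4.199) were the lowest of the 3. These Flt3 and H2-Eb2 values, and the unstimulated Kmo value, lay under the lowest array median (4.41). They are not shown to lie above background, so their ranks among the 3 arrays may be noise. The rest of the 9 markers were neither highest in both conditions nor lowest in both. Cnn3 on replicate 2 was the highest of the 3 with LPS (6.11) and the lowest unstimulated (4.07). Other marker lists moved in GM-MF with LPS too. Of the 9 macrophage markers, 2 rose, 1 fell and 6 did not pass. Of the 10 stromal markers 2 rose and 1 fell, and of the 10 immediate early genes 2 rose and 2 fell. Of the 9 neutrophil and the 6 mast cell and basophil markers, 1 each rose, and 1 of 5 platelet markers fell. Kit averaged 5.27 with LPS and 4.27 unstimulated, and Ppbp 7.48 and 9.20. The part of these markers in the Fscn1 and Cnn3 rises, or in the other GM-MF changes, was not tested.

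The 6 genes that fell in GM-MF were Myo1f, Coro1c, Evl, Was, Arpc1b and Pfn1. Coro1c fell by 1.32 ± 0.11 (adjusted p = 6.71e-07), 2.49-fold, with the LPS arrays all more than 1 log2 unit below the unstimulated ones. Evl fell by 0.73 ± 0.14 (0.00142), Was by 0.43 ± 0.11 (0.0104), Arpc1b by 0.39 ± 0.08 (0.00438) and Pfn1 by 0.32 ± 0.09 (0.0247). Pfn1 did not pass without unstimulated GM-MF replicate 1 or 3 or LPS replicate 2 or 3 (-0.30 to -0.33, adjusted p = 0.0515 to 0.0914). With the replicate number as a block within GM-MF, Cnn2 and Myo1e passed as well, both at -0.37 (adjusted p = 0.0325 and 0.021, against 0.188 and 0.117 without the block), and Myo1e also passed without unstimulated GM-MF replicate 2 (-0.49, adjusted p = 0.0478).

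**Figure D4:**
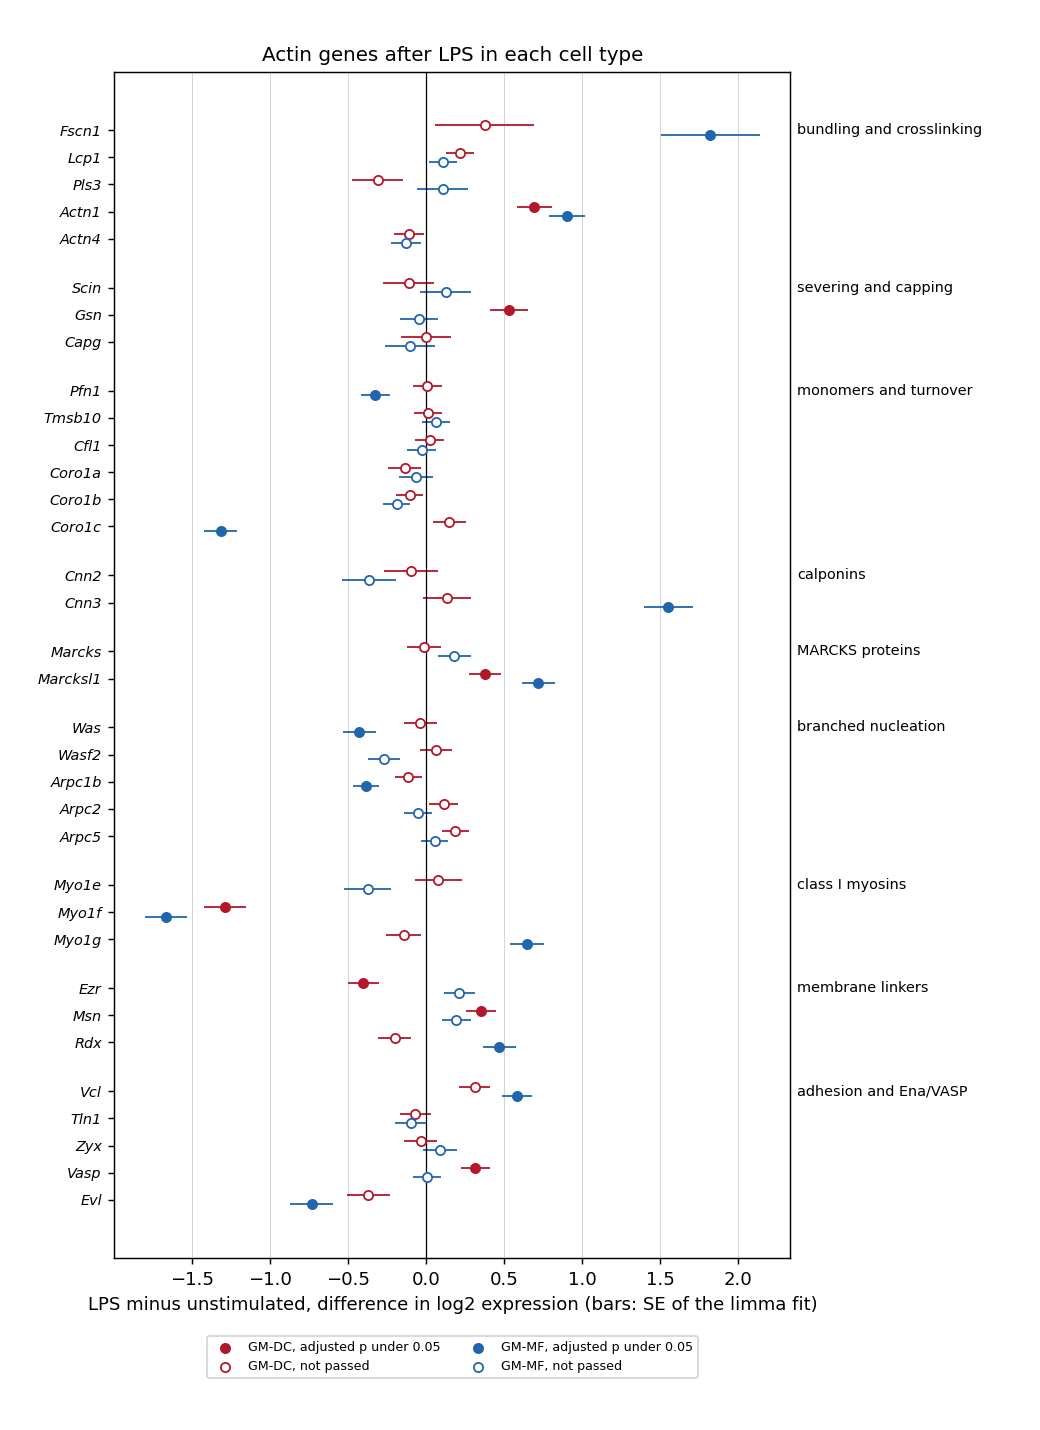
LPS minus unstimulated difference in log2 expression for 34 of the 37 measured actin genes, grouped by role, in GM-DC (red) and in GM-MF (blue), from 3 arrays per group. Points are fitted differences, bars their SE, and filled points passed at an adjusted p under 0.05; Actn1, Marcksl1 and Myo1f are filled in both cell types, and the widest gaps between red and blue are those of Coro1c, Fscn1 and Cnn3.

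The difference of the LPS responses between the cell types was tested as the interaction, and passed for 5 of the 37 genes, 1 upward and 4 downward, where 7.59% of all genes passed (4.53% higher, 3.06% lower) and 12.6% of those above the table median. At 2-fold or more, 1 lay upward and 1 downward, against 1.9% and 1.35% of all genes, together 3.26%. Coro1c was the upward one, at 1.47 ± 0.15 (adjusted p = 1.79e-05): its change was 0.15 ± 0.11 in GM-DC and -1.32 ± 0.11 in GM-MF. Cnn3, at -1.42 ± 0.22 (0.000709), changed by 0.14 ± 0.15 in GM-DC and by 1.55 ± 0.15 in GM-MF.

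The other 3 downward interactions were of Myo1g, Rdx and Ezr. Myo1g was at -0.79 ± 0.16 (0.00455), its change having been -0.14 ± 0.11 in GM-DC and 0.65 ± 0.11 in GM-MF. Rdx was at -0.67 ± 0.15 (0.0116), with -0.20 ± 0.11 in GM-DC and 0.47 ± 0.11 in GM-MF. Ezr was at -0.62 ± 0.14 (0.0121), with -0.40 ± 0.10 in GM-DC and 0.21 ± 0.10 in GM-MF. Msn, the third ERM gene, was at 0.16 ± 0.13 and did not pass, nor did the other class I myosin members Myo1e (0.45 ± 0.21) and Myo1f (0.38 ± 0.19).

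Fscn1 had an interaction of -1.45 ± 0.45 that did not pass (adjusted p = 0.0676), having changed by 0.38 ± 0.32 in GM-DC and by 1.82 ± 0.32 in GM-MF. With the replicate number as a block within each cell type, Fscn1 did pass (adjusted p = 0.00244), as it did without unstimulated GM-MF replicate 2 (-1.87, adjusted p = 0.00416) or LPS replicate 3 of GM-MF (-1.74, adjusted p = 0.0276). Gsn, at 0.58 ± 0.17 (adjusted p = 0.0541), passed with that block too (0.0231), and without LPS replicate 3 of GM-DC (0.73, adjusted p = 0.00432). Was passed without that array (0.50, adjusted p = 0.0321), against 0.39 ± 0.15 (adjusted p = 0.155) on all arrays.

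A wider list of 186 other actin-related genes was read from the same fits, and 175 were measured. Without LPS, 56 stood higher in GM-DC and 42 lower, and the other 77 did not pass, with a median difference of 0.06. The called share was 56%, against 34.2% of all genes and 55% of genes above the table median, and 146 of the 175 lay above that median. With LPS, 67 were higher, 41 lower and 67 did not pass, a called share of 61.7%, against 36.3% of all genes and 57.7% of those above the median. The genes with the largest upward differences without LPS were Mylk (myosin light chain kinase, 3.41), Cdc42ep3 (a Cdc42 effector, 3.04) and Ssh1 (a phosphatase that activates cofilin, 2.87). The largest downward ones were of Parvb (parvin beta of integrin adhesions, -3.05), Rhob (-2.84) and Hcls1 (the cortactin relative of blood cells, -2.81). With LPS, Cdc42ep3 (4.25), Mylk (3.55) and Swap70 (a Rac-signalling protein, 3.34) led upward, and Rhoh (-2.93), Rhoq (-2.28) and Parvb (-2.28) downward. Among the 22 adhesion genes of that list, 3 were higher and 10 lower without LPS, and 5 and 10 with LPS. Among its 29 genes of branched nucleation and formins, 15 were higher and 4 lower without LPS, and 16 and 5 with LPS. Of all genes, 18% were higher and 16.2% lower without LPS, and 20.9% and 15.4% with LPS. In a fit of the 11087 genes above the table median alone, 3453 were higher and 3083 lower without LPS. With LPS these were 4013 and 2757.

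With LPS, 24 genes of the wider list rose, 14 fell and 137 did not pass in GM-DC. In GM-MF 24 rose, 37 fell and 114 did not pass. The called shares were 21.7% in GM-DC and 34.9% in GM-MF, against 9.72% and 17.4% of all genes and 16.6% and 28.8% of those above the table median. In GM-DC the largest rises were of Rhob (2.31), Cdc42ep1 (1.74) and Rnd3 (1.42), and the largest falls of Ssh2 (-1.10), Eps8 (-0.97) and Myo18a (-0.81). In GM-MF the largest rises were of Rnd1 (2.13), Arhgef3 (1.50) and Slc9a3r1 (1.22), whose protein is a partner of ezrin, and the largest falls of Tns1 (-1.38), Fermt3 (-1.29) and Vav1 (-1.28). The interaction passed upward for 21 genes, led by Rhob (2.07), Cdc42ep1 (1.80) and Hcls1 (1.79), and downward for 6, led by Arhgef3 (-1.98), Rnd1 (-1.89) and Rhoq (-0.89). Together these were 15.4% of the 175, against 7.59% of all genes and 12.6% of those above the median.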

How the data were processed

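Expression was measured on 12 arrays, 3 in each of 4 groups. The deposited table holds log2 values; RMA and R 3.0.2 are the tools named for the authors' processing, per the submitters' processing notes. That the log is to base 2 is not written in the sources used here and rests on the table's range, 1.18 to 13.7. No further scaling and no filter was applied, and array medians ran from 4.41 to 4.54. No scanner file was used and thus no probe set was called above background, and the number of arrays limits the precision.

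Of 35556 probe sets, 21789 carried 1 gene symbol, 1621 several and 12146 none. Per gene the probe set with the highest mean over the 12 arrays was kept (999 genes had several), which left 19938 genes. Differences were fitted with limma 3.58.1 in R 4.3.3 (lmFit on 4 group means, contrasts, eBayes without trend, 8 residual degrees of freedom, two-sided), with Benjamini-Hochberg adjustment over all 19938 genes of each comparison, and the code was tested on simulated data. GM-DC was set against GM-MF with and without LPS, LPS against unstimulated in each cell type, and the last pair against each other (the interaction). These comparisons share arrays. All members may be named, of the wider list the 3 called genes with the largest difference in each direction, and all markers. The members and lists were chosen with earlier results of these data known.

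Labels number the arrays 1 to 3 in each group. Deviations from the group means correlated between same-numbered LPS and unstimulated arrays, at 0.119 to 0.363 in GM-DC and 0.104 to 0.257 in GM-MF. Differently numbered arrays ran from -0.25 to 0.1645 in GM-DC and from -0.216 to 0.0254 in GM-MF. The best match had the array's own number for 3 of 6 arrays in GM-DC and 6 of 6 in GM-MF. Between GM-DC and GM-MF without LPS, same-numbered arrays ran from -0.168 to 0.0117, against -0.13 to 0.1465 for differently numbered ones. With LPS, same-numbered arrays ran from -0.0047 to 0.156, against -0.1345 to 0.0512. The best match there had the array's own number for 1 of 6 arrays without LPS and 4 of 6 with it. The labels do not call the number a pair, so pairing was tried only as an alternative and the reported calls use no block. A fit with the number as a block within each cell type was chosen after seeing the data. Alternatives covered normalization, centring, probe sets per gene, filters on low values, the variance model, the samples in the fit, a block, and leaving out each array.

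Promoter windows came from the RefSeq table of GRCm38.p6. Protein sequences were not used here. The description of 1 group of 3 members is not reported here; they stay in the counts over 37. TGACGTCA was added to the motifs after the sequences had been seen. Marker lists were those of dendritic, macrophage, neutrophil, mast, stromal, platelet, T and NK, B and erythroid cells and of immediate early genes.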

Additional observations from a re-analysis of the deposited data

Results flagged for a closer look

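For 5 of the 37 measured actin genes the response to LPS differed between the cell types by a test of the difference itself, the interaction of the limma fit (GM-DC response minus GM-MF response, log2 units ± SE). This is 13.5% of the members, where 7.59% of all genes passed and 12.6% of those above the table median. Coro1c was at 1.47 ± 0.15 (adjusted p = 1.79e-05), having fallen in GM-MF. Cnn3 was at -1.42 ± 0.22 (adjusted p = 0.000709) and Myo1g at -0.79 ± 0.16 (adjusted p = 0.00455), both having risen in GM-MF. Rdx was at -0.67 ± 0.15 (adjusted p = 0.0116). Ezr was at -0.62 ± 0.14 (adjusted p = 0.0121), the one of the 5 that fell in GM-DC. All 5 passed under every alternative tried.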

How the results depend on the processing

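Of the counts of members called, those between the cell types and in GM-MF with LPS stayed within 1.5 times the reported value under every alternative tried, and those in GM-DC and of the interaction did not. The 5 genes that rose in GM-DC with LPS became 1 when the fit held the compared arrays alone, and leaving out 1 array gave 1 to 5 risen and 1 to 3 fallen genes. The single upward interaction became 3 after quantile normalization, 2 with genes of mean above the table median, 2 with genes above it on 3 arrays, 4 with a variance trend, 2 with array weights, 2 with the replicate block over all arrays, 2 with the block within each cell type, and 1 to 3 without single arrays. Leaving out 1 array gave ranges of 11 to 11 higher and 13 to 16 lower genes in GM-DC without LPS, 11 to 14 and 10 to 14 with LPS, 7 to 7 risen and 5 to 7 fallen in GM-MF, and 4 to 5 downward interactions.

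After quantile normalization 4 values turned sign in GM-DC against GM-MF with LPS, 2 of them called in one of the fits: Lcp1 became 0.23 (-0.07 as reported) and Arpc1b 0.00 (-0.27 as reported). Of the single-gene values under all alternatives, 3905 kept their direction and call, 76 lost the call and 85 gained one. A further 76, called in neither fit and at most 0.18 in size as reported, turned sign. The cause was not tested. With the compared arrays alone in the fit, the calls of Gsn, Tmsb10, Cfl1, Arpc1b and Rdx between the cell types with LPS and of Gsn, Marcksl1, Msn and Vasp in GM-DC were lost (fewer samples). The share of called genes that were higher moved by over 10 points for LPS in GM-MF, to 52.4% after cyclic loess against 37.7% as reported. The block changed no call beyond those given with the results: taken within each cell type it moved the GM-DC counts to 4 risen and 3 fallen and the GM-MF counts to 7 and 8, and taken over all arrays it left the counts between cell types at 11 and 15 without LPS. With 3 arrays per group and no background call, low GM-MF signals of Scin, Cnn3 and Fscn1 limit their folds.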
